A study of Mus musculus with 16 samples.

Results

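The genes described here are p53 and 9 of its direct targets, chosen by name: Trp53, which encodes p53 itself, Phlda3, Cdkn1a, Mdm2, Ccng1, Bax, Bbc3, Eda2r, Sesn2 and Trp53inp1. A probe set was a member where the array annotation gave it 1 of these 10 symbols. Of the 10 genes, 8 had at least 1 such probe set, which makes 8 of the 17097 genes tested and 14 of the 45141 probe sets on the array. Trp53 and Bax are not analysed here. The data were log2 expression values of ventricular cardiomyocytes, the contractile cells of the heart, from 16 mice with 1 array per mouse. GPER, encoded by Gper1, is a membrane receptor for estrogen. There were 4 groups of 4 mice: GPER KO and intact females, and GPER KO and intact males. The labels give an age of 15 weeks for every mouse, and the study's methods give a somewhat older age. No drug treatment sets the groups apart. By the study's methods, mice were given heparin and then pentobarbital anesthesia before the heart was taken out. According to the study, the receptor was removed from cardiomyocytes in the KO animals. The Cre driver, and whether the intact mice carried Cre or floxed alleles, are not given in the sources used here. The cells were obtained by perfusing hearts with collagenase and spinning them at low speed, without sorting, so other heart cells can be present.

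p53 is a transcription factor that is normally kept low because the ubiquitin ligase MDM2 marks it for breakdown. DNA damage, oxidative stress and stress on the ribosome release it from MDM2, after which it binds paired decamers in the DNA of its targets and raises their transcription. Its targets stop the cell cycle (Cdkn1a), turn p53 off again (Mdm2, Ccng1), trigger death at the mitochondrion or through a surface receptor (Bax, Bbc3, Eda2r), limit growth signals (Phlda3, Sesn2) or strengthen p53 itself (Trp53inp1). Adult cardiomyocytes hardly divide, and in heart muscle p53 is known mainly for its part in cell death and metabolism under stress. The question put to the arrays was whether Phlda3 moved together with the other targets, as would follow from a general p53 response to DNA damage.

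Promoter sequence is given for 4 members whose mRNA is followed below, since the question turns on shared control by p53. RefSeq promoters of assembly GRCm38.p6, from 250 bases before to 50 bases after the start site, gave 12 entries for 9 of the 10 members, with none for Trp53inp1. The p53 decamer, searched by its consensus on both strands, was present in 5 of these 12 promoters (41.7%), against 2745 of all 32851 promoters (8.36%). The 5 promoters belonged to Trp53, Cdkn1a, Mdm2, Ccng1 and Bax. A match of letters is a description and not a bound site. In the Cdkn1a promoter printed here 2 decamers, in capitals, began 73 and 51 bases before the start site. They lay within 13 bases of each other, a layout present in 24 of all promoters (0.0731%). The promoter at another Cdkn1a start site (chr17:29093519-29093768, plus strand, for the bases before it) held no decamer and is not printed. The 250 bases before the start site of Phlda3 (chr1:135765835-135766084, plus strand) are set against those of Cdkn1a (chr17:29090729-29090978, plus strand), and capitals mark the decamers in Cdkn1a. In Mdm2 (chr10:117710915-117710964, minus strand) and Ccng1 (chr11:40755442-40755491, minus strand) only the 50 bases around the decamer are shown.
Phlda3: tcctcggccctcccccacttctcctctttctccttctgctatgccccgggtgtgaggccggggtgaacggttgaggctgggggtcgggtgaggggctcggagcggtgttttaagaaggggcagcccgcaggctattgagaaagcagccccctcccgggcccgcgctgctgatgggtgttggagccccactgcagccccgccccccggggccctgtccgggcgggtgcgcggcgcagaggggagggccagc
Cdkn1a: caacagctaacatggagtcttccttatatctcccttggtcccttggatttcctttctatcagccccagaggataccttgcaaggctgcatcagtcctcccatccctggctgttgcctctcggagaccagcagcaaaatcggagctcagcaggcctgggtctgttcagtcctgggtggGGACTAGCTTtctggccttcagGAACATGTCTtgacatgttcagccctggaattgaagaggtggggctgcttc
Mdm2: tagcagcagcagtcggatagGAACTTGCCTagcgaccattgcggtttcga
Ccng1: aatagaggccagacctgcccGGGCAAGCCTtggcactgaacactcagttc
No decamer was found in the Phlda3 window, which says only that these letters are not in those bases.

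Before the members, the cell content of the preparations is given, since the expression of every member can come from any cell present. Of the 12 cardiomyocyte markers 11 were measured, all at or above percentile 99.1 of the signal of all probe sets, and 0 of them were called between genotypes. A gene is named as called, or as having risen or fallen, where its adjusted p from limma over all 17097 genes was under 0.05. Macrophage markers lay above intact for 14 of 15 in females and 15 of 15 in males, where 41.2% and 56.5% of all genes did. Of these markers 0 were called in females, 6 in males and 6 over both sexes. Called shares over all genes were 0.281%, 0.62% and 1.36%. The summed signal of the macrophage markers (log2) was 9.28 to 9.62 in female GPER KO arrays and 8.82 to 9.16 in female intact arrays. In males the summed signal was 9.48 to 10.35 in GPER KO arrays and 9.0 to 9.65 in intact arrays. No marker can be called absent on this scale, and the defining markers Adgre1 and Csf1r stood at percentiles 66.1 and 78.8 of all probe sets. Csf1r was the marker not above intact in females, with means of 5.40 in GPER KO and 5.46 in intact mice. Adgre1 had 4.24 and 4.15 there. In males the means in GPER KO and intact mice were 5.57 and 5.23 for Csf1r, and 4.54 and 4.25 for Adgre1. All 12 endothelial markers lay below intact in both sexes with 0 called, and fibroblast markers lay above intact for 8 of 10 in females and 6 of 10 in males with 0 called. Fewer cells of a type and less RNA per cell cannot be told apart in such preparations. The part of these shifts in the results on p53 targets was not tested. Gper1 itself was read by 1 dim probe set at 2.64 to 3.11 in all groups. Its place with respect to the deletion is unknown here, so it is no check of the labels.

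Phlda3, which encodes a small pleckstrin homology protein that keeps the kinase AKT from the membrane, was the member that rose in GPER KO cardiomyocytes of both sexes. In females its log2 values were 5.62, 5.63, 5.87 and 5.67 in GPER KO cardiomyocytes, against 4.65, 4.86, 5.04 and 4.88 in intact cardiomyocytes. In males the values were 6.11, 5.62, 6.20 and 5.99 in GPER KO cells, against 4.69, 4.95, 4.92 and 4.89 in intact cells. Each of the 8 KO arrays therefore stood above each of the 8 intact arrays, a separation found in 0.386% of all genes. The group means were 5.70 ± 0.12 and 4.86 ± 0.16 (SD, n = 4 each) in female GPER KO and female intact mice. The log2 difference was 0.84 in females (95% interval 0.61 to 1.08, adjusted p = 0.00241 from limma). The means were 5.98 ± 0.25 and 4.86 ± 0.12 (SD, n = 4 each) in male GPER KO and male intact mice. The log2 difference was 1.12 in males (95% interval 0.88 to 1.36, adjusted p = 0.000141 from limma). Averaged over the sexes it was 0.98 (standard error 0.08, 95% interval 0.81 to 1.15, adjusted p = 6.01e-06 from limma), or 1.97-fold. The male difference exceeded the female one by 0.28 (95% interval -0.06 to 0.61, adjusted p = 0.525), which was not called. Phlda3 was picked with its rise already known, so these values describe the member against which the others were set.

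**Figure D1:**
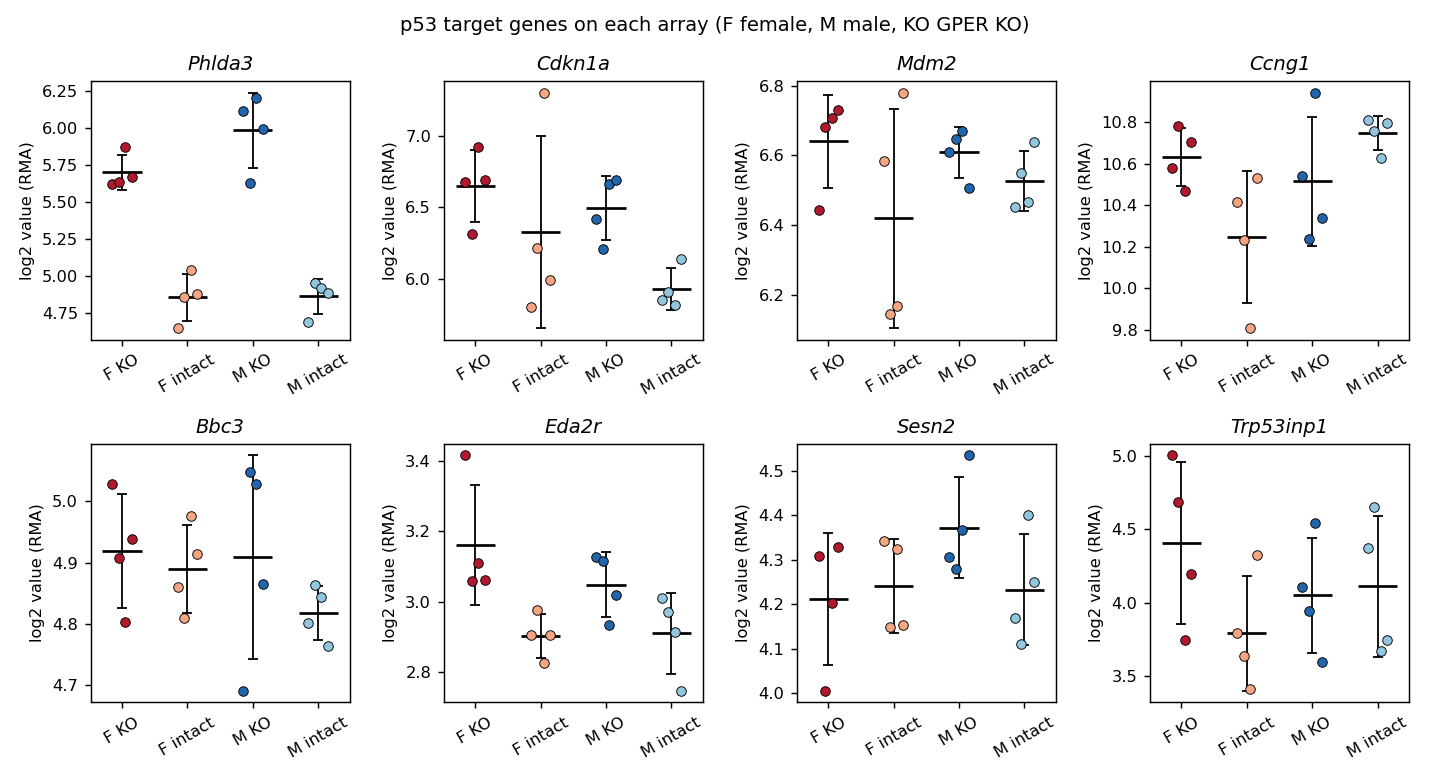
Log2 RMA value (y axis) on each of the 16 arrays for the 8 measured members, 1 panel per gene and its brightest probe set, with GPER KO left of intact in each sex, a point per array, a line at the group mean and an error bar of 1 SD. Phlda3 separates all 8 KO arrays (5.62 to 6.20) from all 8 intact arrays (4.65 to 5.04), and in the other panels KO and intact arrays overlap in at least 1 sex.

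Cdkn1a, encoding the cyclin-dependent kinase inhibitor p21 and the best known p53 target, had the next largest difference over both sexes, but its difference did not pass the threshold with all arrays. On the brighter of its 2 probe sets the log2 values in females were 6.68, 6.31, 6.92 and 6.69 in GPER KO cells, against 5.80, 6.22, 7.30 and 5.99 in intact cells. In males they were 6.42, 6.21, 6.66 and 6.69 in GPER KO cells, against 5.85, 5.91, 5.82 and 6.14 in intact cells. The male groups did not overlap, as for 4.24% of all genes with GPER KO higher. In females 3 of the 4 intact arrays lay below every KO array while the array of female intact mouse 422, at 7.30, lay above them all. The difference was 0.32 in females (95% interval -0.18 to 0.82, adjusted p = 0.613), 0.56 in males (0.06 to 1.06, adjusted p = 0.411) and 0.44 over both sexes (0.09 to 0.80, adjusted p = 0.275). The difference between the sexes was 0.24 (adjusted p = 0.815).

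The second Cdkn1a probe set gave the same picture with larger differences. In females it read 5.93, 5.55, 6.12 and 5.96 in GPER KO cells, against 4.71, 4.91, 6.55 and 5.0 in intact cells. In males it read 5.57, 5.35, 6.22 and 6.04 in GPER KO cells, against 4.26, 4.81, 4.36 and 5.13 in intact cells. Mouse 422 was again the highest of all 16. With every probe set tested on its own, the difference was 0.60 in females (adjusted p = 0.488), 1.16 in males (adjusted p = 0.165) and 0.88 over both sexes (adjusted p = 0.0933). Without that 1 array, Cdkn1a rose by 0.60 on the brighter probe set over both sexes (adjusted p = 0.00486 over all genes). This array was singled out after its values were seen, and leaving it out gave the largest difference of all single arrays. With each array left out, the difference over both sexes was 0.36 (without female intact 418) to 0.60, with adjusted p of 0.00486 to 0.437 from limma. On the second probe set the difference without array 422 was 1.09 over both sexes (adjusted p = 0.00189) and 1.16 in males (adjusted p = 0.0180). The male difference itself did not change, since array 422 is from a female, and its lower p came from the estimate of spread that the groups share. The female difference without it was 0.64 on the brighter probe set (adjusted p = 0.112). Array 422 was also the lowest of the 16 on all 3 Ccng1 probe sets, on 1 of the Mdm2 probe sets and on 1 of the Trp53inp1 probe sets. It had the lowest mean correlation with its group, 0.9912, beside 0.9917 for female intact 425.

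The members that restrain p53 did not pass the threshold. Mdm2 read 6.44, 6.68, 6.71 and 6.73 in female GPER KO cells, against 6.59, 6.14, 6.17 and 6.78 in female intact cells. In males it read 6.61, 6.65, 6.67 and 6.51 in GPER KO cells, against 6.45, 6.55, 6.47 and 6.64 in intact cells. Both pairs of groups overlapped, and the difference over both sexes was 0.15 (95% interval -0.02 to 0.33, adjusted p = 0.541). The interval lies below that of Phlda3. The other Mdm2 probe set gave 0.26 in females (95% interval 0.09 to 0.42, adjusted p = 0.231 from limma over all probe sets). It gave 0.03 in males (-0.14 to 0.19) and 0.14 over both sexes (0.03 to 0.26, adjusted p = 0.324). Its intervals in females and over both sexes thus excluded 0, though neither difference was called.

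Ccng1 encodes cyclin G1, which recruits a phosphatase that activates MDM2, and it was the brightest member. In females it read 10.58, 10.78, 10.47 and 10.70 in GPER KO cells, against 10.41, 10.23, 9.81 and 10.53 in intact cells. In males it read 10.54, 10.24, 10.94 and 10.34 in GPER KO cells, against 10.81, 10.76, 10.63 and 10.79 in intact cells. KO arrays were thus mostly above intact arrays in females and mostly below them in males. The difference was 0.39 in females (95% interval 0.07 to 0.70, adjusted p = 0.305) and -0.23 in males (95% interval -0.55 to 0.08, adjusted p = 0.671). The test of the difference between the sexes gave -0.62 (male minus female, standard error 0.21, adjusted p = 0.426), with an unadjusted p of 0.00992 from limma, where 11% of all genes were under 0.05. On this brightest probe set all 4 male intact arrays stood above all 4 female intact arrays, by 0.50 on average (adjusted p = 0.114 from limma). Of all genes, 3.05% were higher in male intact mice without overlap, and 0.579% were called. On the other Ccng1 probe sets these groups overlapped. On 1 of them male intact arrays read 9.74 to 10.01 and female intact arrays 9.01 to 9.92. On the other they read 9.64 to 9.88 and 8.72 to 9.72. Without array 422 the sex difference on the brightest probe set was -0.47. With all arrays, the other Ccng1 probe sets gave sex differences of -0.38 (95% interval -0.86 to 0.09) and -0.70 (-1.26 to -0.13). Their differences were 0.29 and 0.44 in females, and -0.09 and -0.26 in males.

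The members linked to cell death, Bbc3 and Eda2r, did not pass the threshold. Bbc3, which encodes the BH3-only protein PUMA, ranged from 4.69 to 5.05 in the 8 KO arrays and from 4.76 to 4.98 in the 8 intact arrays. Its difference was 0.03 in females (95% interval -0.13 to 0.19) and 0.09 in males (95% interval -0.07 to 0.25), with adjusted p of 0.909 and 0.759. Eda2r encodes a receptor of the tumour necrosis factor receptor family that binds ectodysplasin A2. It read 3.41, 3.06, 3.11 and 3.06 in female GPER KO cells, against 2.90, 2.98, 2.83 and 2.91 in female intact cells. In males it read 3.13, 3.11, 2.93 and 3.02 in GPER KO cells, against 3.01, 2.97, 2.91 and 2.75 in intact cells. The female groups did not overlap, as for 1.95% of all genes with GPER KO higher, and the male groups did. The difference was 0.26 in females (95% interval 0.09 to 0.43, adjusted p = 0.220), 0.14 in males (-0.03 to 0.31, adjusted p = 0.629) and 0.20 over both sexes (0.08 to 0.32, adjusted p = 0.118). Its mean stood at percentile 33.2 of all probe sets, so a low signal limits what it can show, and without female GPER KO array 417 its female value was 0.17.

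The stress-metabolism members were also uncalled. Sesn2 encodes sestrin 2, which restrains mTORC1 signalling and is also induced by ATF4. Its values ran from 4.01 to 4.53 in GPER KO arrays and from 4.11 to 4.40 in intact arrays, with differences of -0.03 in females (95% interval -0.21 to 0.15, adjusted p = 0.920) and 0.14 in males (-0.04 to 0.32, adjusted p = 0.648). Trp53inp1 encodes a protein that promotes the phosphorylation of p53 and autophagy. Its brighter probe set varied widely, from 3.60 to 5.0 in KO arrays and from 3.41 to 4.65 in intact arrays. The difference was 0.62 in females (95% interval 0.02 to 1.22, adjusted p = 0.385) and -0.06 in males (95% interval -0.66 to 0.54, adjusted p = 0.967). The second probe set gave 0.00 in females and -0.05 in males, so its probe sets differ in females.

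Set side by side, Phlda3 was the only member called with all 16 arrays in the fit: 1 of 8 in females, 1 of 8 in males and 1 of 8 over both sexes. Called shares over all genes were 0.281%, 0.62% and 1.36%, and Phlda3 was chosen as known to be called. No member was called for the difference between the sexes, where 0% of all genes were called by limma and 11% had an unadjusted p under 0.05. The 7 other members had differences of -0.03 to 0.62 in females, -0.23 to 0.56 in males and 0.05 to 0.44 over both sexes, with adjusted p from 0.118 to 0.880 over both sexes. The median over the 8 was 0.29 in females, 0.11 in males and 0.17 over both sexes, beside -0.02, 0.01 and -0.0016 over all genes. Differences lay above 0 for 7 of 8 in females, 6 of 8 in males and 8 of 8 over both sexes, where 41.2%, 56.5% and 49.1% of all genes did. At an unadjusted p under 0.05 in limma, 3 of 8 were higher over both sexes, namely Phlda3, Cdkn1a and Eda2r, and 5.9% of all genes were. In females 4 of 8 were (Phlda3, Ccng1, Eda2r and Trp53inp1, against 5.05% of genes) and in males 2 of 8 (Phlda3 and Cdkn1a, against 7.05%). KO arrays stood above intact arrays without overlap for 2 members in each sex, where 1.95% of genes in females and 4.24% in males did. They were Phlda3 and Eda2r in females, and Phlda3 and Cdkn1a in males. Phlda3, picked with its rise known, is included in the medians and in every count over the 8. Those numbers are therefore raised by the choice, and setting them beside all genes is a description. The difference of Phlda3 exceeded that of each other member, by 0.23 for Trp53inp1 in females to 1.35 for Ccng1 in males, a description with no test.

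**Figure D2:**
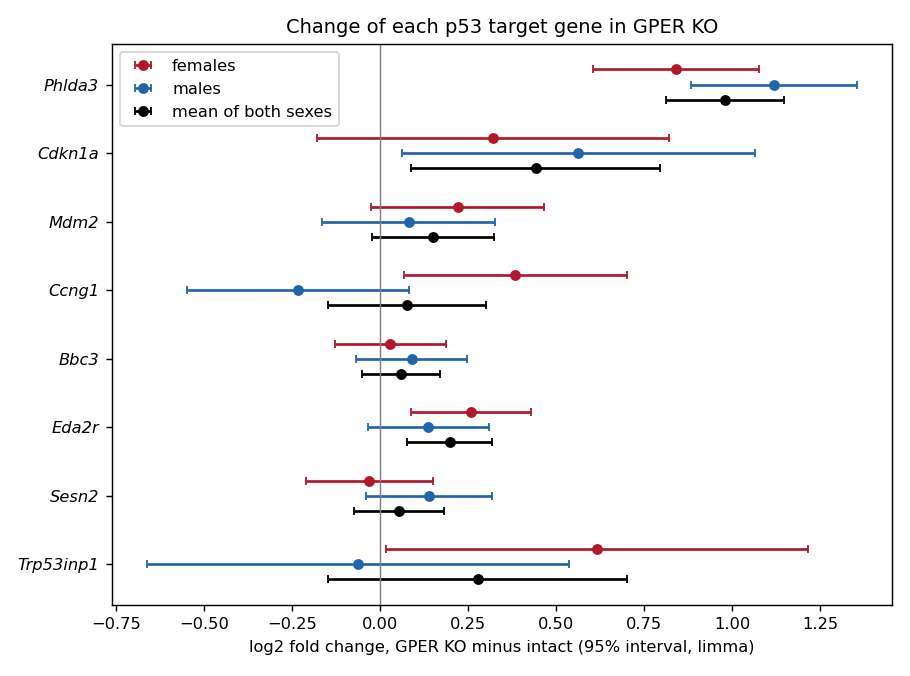
Log2 fold change, GPER KO minus intact (x axis), of the 8 measured members in females, in males and averaged over both sexes, with 95% intervals from limma. The intervals of Phlda3 begin at 0.61 in females and 0.88 in males. Those of Mdm2, Bbc3 and Sesn2, each on its brightest probe set, include 0 in each sex.

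Whether Phlda3 moved with the other targets was then asked within the groups, apart from the genotype difference. For each gene, values were taken as deviations from their group mean, and arrays with more Phlda3 than their group mean were compared over the 16 arrays. Cdkn1a had the highest such correlation among the members, with Pearson r = 0.62 (permutation p = 0.00889) and Spearman rho = 0.60 (permutation p = 0.0240). Adjusted over all 17096 genes set against Phlda3, the p was 0.707 for r. No gene passed after adjustment, and 1049 genes (6.14%) had an unadjusted permutation p under 0.05 for r. Cdkn1a stood at percentile 98.2 of all genes by r. Without the 2 arrays farthest from the Phlda3 median, male GPER KO 432 and female intact 418, r was 0.52, and with single arrays left out it was 0.54 to 0.66. The second Cdkn1a probe set gave r = 0.65. Within genotype, r was 0.69 over the 8 KO arrays (exact permutation p = 0.0608) and 0.72 over the 8 intact arrays (exact permutation p = 0.109). The r of the 6 other members lay between -0.36 for Eda2r and 0.11 for Sesn2, with unadjusted permutation p of 0.150 to 0.853, and Mdm2 had -0.11 and Ccng1 0.07. Within genotype, several other members differed in sign between KO and intact arrays or between probe sets. Ccng1 had r = 0.56 over the 8 KO arrays and -0.64 over the 8 intact arrays (exact permutation p = 0.328 and 0.191), and Bbc3 had -0.50 and 0.59 (exact permutation p = 0.378 and 0.184). Over the intact arrays the second probe sets of Trp53inp1 and Sesn2 had 0.72 and 0.61 (exact permutation p = 0.0729 and 0.226), where their brighter ones had -0.24 and 0.02. None of the 26 within-genotype relations computed, over 13 probe sets, had an exact p under 0.05 for r. By Spearman's rho 2 did, both of the second Cdkn1a probe set, with 0.76 over the KO arrays (exact permutation p = 0.0451) and 0.90 over the intact arrays (exact permutation p = 0.0191), unadjusted. On that probe set r over the KO arrays was 0.72, and 0.23 without the 2 of them farthest in Phlda3. On the brighter Cdkn1a probe set it went from 0.69 to 0.48. Over the intact arrays the values without the 2 farthest were 0.83 and 0.84. Array 422 had the highest Cdkn1a of its group and also the highest Phlda3.

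**Figure D3:**
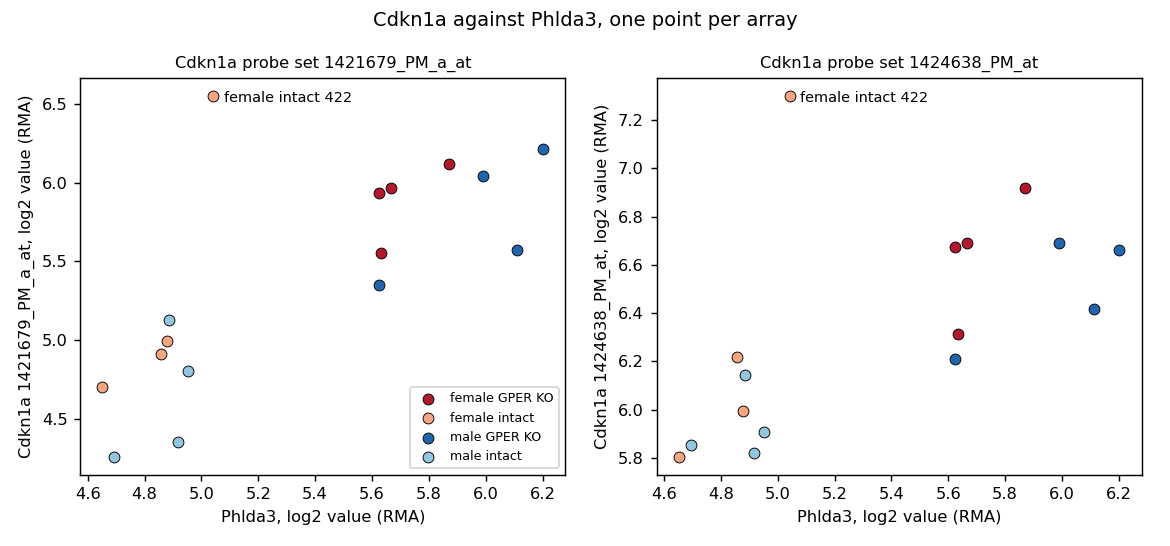
Log2 value of Phlda3 (x axis) against Cdkn1a (y axis) on the 16 arrays, marked by sex and genotype. Phlda3 splits the KO arrays from the intact arrays on the x axis, and female intact 422, with a Cdkn1a value of 7.30, lies above all others on the y axis.

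Over the 16 arrays without removing the group means, the genes most like Phlda3 were Ndnf (r = 0.94), Uck2 (0.91), Rab31 (0.90), Cox19 (0.89) and Fgl2 (0.89), and none is a member. Cdkn1a had 0.60 on the same measure, at percentile 97.3 of all genes. Eda2r had 0.51, Mdm2 0.36, Sesn2 0.32, Bbc3 0.22, Trp53inp1 0.21 and Ccng1 0.12. These r values share the genotype groups, so any gene with a large genotype difference ranks high. By deviations from group means the genes most like Phlda3 were Mcm6 (r = 0.86), Mks1 (0.83), Ikzf1 (0.83), Pcdh12 (0.83) and Plekhg2 (0.83). All are dim probe sets with group means of 3.10 to 4.15.

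Among 45 other direct p53 targets named from general knowledge, 40 were measured. Over both sexes 5 of these rose and 0 fell, where 0.825% of all genes were called higher and 0.538% lower. The 5 were Ephx1, encoding microsomal epoxide hydrolase, Slc19a2, a thiamine transporter, Sulf2, an enzyme that trims sulfate from heparan sulfate, Abhd4, a phospholipid hydrolase, and Perp, a membrane protein of desmosomes. Of the 40, 25 lay above 0 over both sexes, with a median of 0.03. In females 1 rose (Slc19a2) and 0 fell, where 0.123% of all genes were called higher and 0.158% lower, and 23 of 40 lay above 0. In males 1 rose (Sulf2) and 0 fell, where 0.509% were called higher and 0.111% lower, and 28 of 40 lay above 0. The list was drawn up with earlier results known and is no independent evidence.

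Slc19a2 rose by 0.39 over both sexes (standard error 0.05, adjusted p = 0.00131). It averaged 6.65 ± 0.15 in female GPER KO and 6.18 ± 0.11 in female intact mice (SD, n = 4 each), and 6.74 ± 0.09 in male GPER KO and 6.43 ± 0.09 in male intact mice (SD, n = 4 each), with no overlap in either sex. Perp rose by 0.30 (standard error 0.06, adjusted p = 0.0144). Its arrays read 9.22 to 9.42 in female GPER KO and 8.80 to 9.16 in female intact mice. In males they read 8.99 to 9.28 in GPER KO and 8.89 to 8.94 in intact mice, again with no overlap in either sex. Of all genes, 1.95% in females and 4.24% in males were higher in GPER KO without overlap. Slc19a2 and Perp are described because they were called on these arrays, so their lack of overlap is no further evidence. Sulf2 rose by 0.32 over both sexes (standard error 0.06, adjusted p = 0.00574), with 0.53 in males (adjusted p = 0.00327) and 0.11 in females. The sex difference of Sulf2 was 0.43 (adjusted p = 0.426). Its other probe set gave 0.03 (adjusted p = 0.939), and that of Slc19a2 0.17 (adjusted p = 0.269), so the calls rest on 1 probe set each. Ephx1 rose by 0.76 (standard error 0.18, adjusted p = 0.0433) and Abhd4 by 0.31 (standard error 0.07, adjusted p = 0.0309), but with single arrays left out these stayed called in 4 and 6 of 16 cases. Perp, Slc19a2 and Sulf2 were called in all 16.

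**Figure D4:**
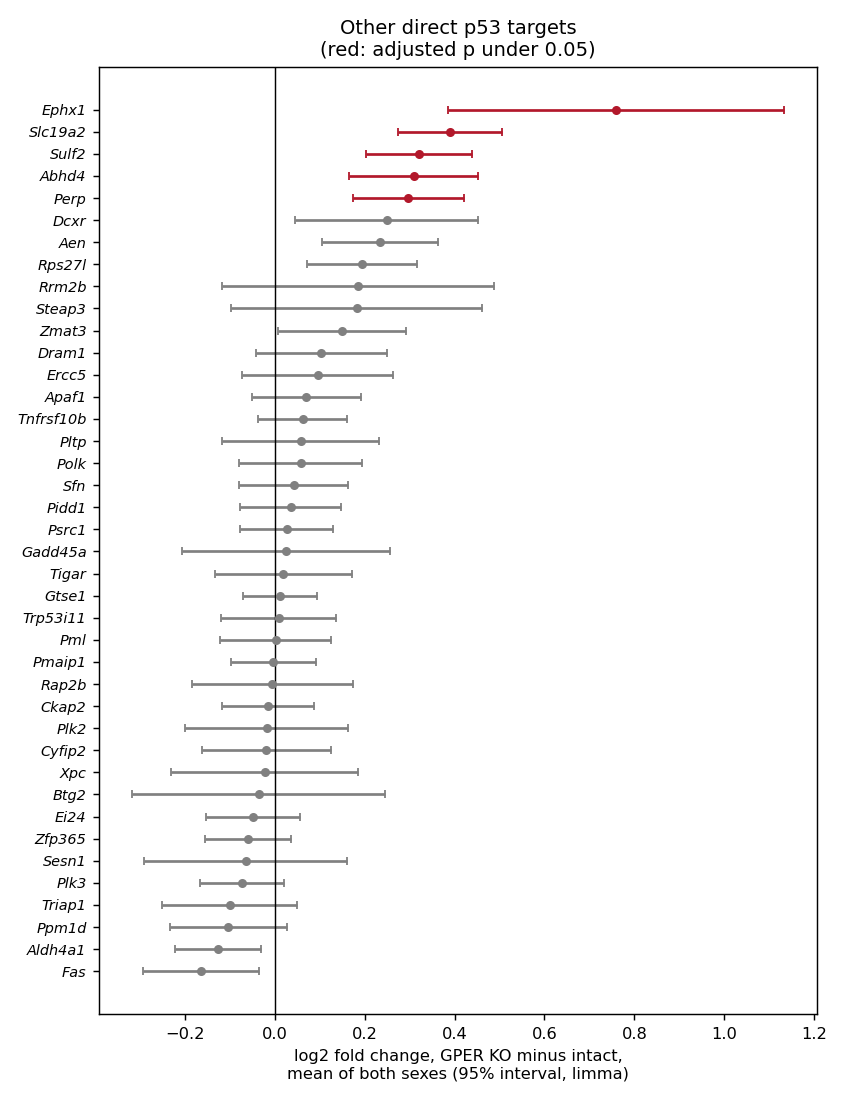
Log2 fold change, GPER KO minus intact averaged over both sexes (x axis), of the 40 other p53 targets measured, each gene a point with its 95% interval from limma and red where the adjusted p is under 0.05. The 5 called genes lie between 0.30 (Perp) and 0.76 (Ephx1), while Fas (-0.16) and Aldh4a1 (-0.13) stand at the lower end without passing.

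Several widely studied targets were not called. Zmat3, encoding an RNA-binding protein, had 0.15 over both sexes (adjusted p = 0.397). Aen, a nuclease of apoptosis, had 0.24 (adjusted p = 0.0747), and Rps27l, a ribosomal protein paralogue, had 0.19 (adjusted p = 0.131). Sesn1, Btg2, Gadd45a and Pmaip1 lay between -0.06 and 0.03, with adjusted p of 0.907 to 0.991. Fas, a death receptor, had -0.16 (adjusted p = 0.265), and Aldh4a1, an enzyme of proline breakdown, had -0.13 (adjusted p = 0.242). These 9 were picked after their values were seen.

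No gene of the 6 further lists around the pathway was called in any contrast. Of all genes 0.281% were called in females, 0.62% in males, 1.36% over both sexes and 0% for the sex difference. With shares this low, 0 called in short lists is no result about the pathway. Of the regulators of p53, 22 were measured and 9 lay above 0 over both sexes, with a median of -0.01, and Cul9, a ligase that binds p53 in the cytoplasm, had 0.12 (adjusted p = 0.477). In the PHLDA family and AKT genes, 7 were measured, and Phlda1, a relative of Phlda3, had 0.53 over both sexes (adjusted p = 0.0869), while Akt2 had -0.03 (adjusted p = 0.893). The BCL2 family had 13 genes with 5 above 0 and a median of -0.04, and Bcl2l11, which encodes the death protein BIM, had -0.35 (adjusted p = 0.175) and Bik, another BH3-only gene, -0.24 (adjusted p = 0.220). DNA damage sensing and repair had 19 genes with 11 above 0 and a median of 0.01, and Ogg1, a DNA glycosylase, had -0.14 (adjusted p = 0.410). Proliferation genes that p53 and p21 lower had 22 genes with 9 above 0 and a median of -0.01, and Rrm2, a subunit of ribonucleotide reductase, had 0.13 (adjusted p = 0.158). The integrated stress response, which also drives Sesn2, had 11 genes with 7 above 0 and a median of 0.08. Psat1, of serine synthesis, had 0.23 (adjusted p = 0.0527) and Asns, asparagine synthetase, had 0.25 (adjusted p = 0.212). Over both sexes these lists had between 0 and 2 genes higher and between 0 and 3 lower at an unadjusted p under 0.05 in limma. The 2 higher were among the 11 of the integrated stress response, where 5.9% of all genes were higher. The 3 lower were among the 13 of the BCL2 family, of which 4 were lower in females and 0 in males. The share of all genes lower at that threshold is not given here.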

How the data were processed

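Total RNA of cardiomyocytes from 16 mice was amplified, biotin-labelled and hybridised to Affymetrix GeneAtlas MG-430 PM arrays. The deposited log2 values per probe set are, per the submitters' processing notes, from RMA and Partek, with no version named. RMA includes quantile normalization, which sets the arrays to a common distribution (array medians 3.47 to 3.51), and the scanner signals were not used here. Signal and not read depth sets the precision, with 4 arrays per group.

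Probe sets were named from the platform annotation, with symbols updated to the RefSeq gene table of GRCm38.p6 (28689 of the 28898 probe sets with 1 gene matched). The 551 with several genes and 15692 with none were left out. The probe set with the highest mean stood for a gene. limma 3.58.1 (R 4.3.3) fitted 4 group means to all 16 arrays, with Benjamini-Hochberg adjustment over 17097 genes and a threshold of 0.05. Each mouse is 1 replicate by its animal number. Correlations used 100000 permutations of arrays within groups. Both steps were tested on simulated data. Genes named are the members, up to 4 called genes per list or the 2 with the smallest unadjusted p, Gper1, and the 5 most like Phlda3 by each measure; others are said to be picked later. The members and lists were chosen with earlier results of these data known. Alternatives were averaging the probe sets of a gene, every probe set, a filter on dim genes, other normalizations, array weights, trend and robust variance, 1 sex alone, and each array left out.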

Additional observations from a re-analysis of the deposited data

Results flagged for a closer look

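In each group of 4 arrays, the gap of the highest or lowest array to its neighbour was set against the whole range of the group, for each of the 14 member probe sets. Of these 56 groups 3 exceeded the critical value, where chance gives about 2.8. On the second Cdkn1a probe set, female intact array 422 stood at 6.55 and the next array at 5.0, a gap of 0.842 of the range. On the brighter Mdm2 probe set, female GPER KO array 417 stood at 6.44, below the next at 6.68, a gap of 0.831 of the range. For Eda2r, female GPER KO array 417 stood at 3.41, above the next at 3.11, a gap of 0.856 of the range. No cause was tested.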

How the results depend on the processing

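Phlda3 was called in both sexes under every alternative and with each array left out, with 0.77 to 0.90 in females and 1.05 to 1.24 in males. The members called over both sexes numbered 1 to 2 with single arrays left out, with Cdkn1a the second, called without female intact 422. The count of all genes called was less stable. In males it was 106 in the fit reported, 181 with array weights and 66 with males alone, and in females 48 and 13 with females alone. With single arrays left out it was 20 (without female intact 421) to 159 (without female intact 425) in females, 53 to 120 in males and 162 to 296 over both sexes. Differences near 0 turned sign. Sesn2 in females (-0.03) was 0.050 as the mean of its probe sets and -0.069 to 0.039 with single arrays left out. Trp53inp1 in males (-0.06) was 0.0084 with array weights and -0.23 to 0.12 with single arrays left out. Bbc3 in females was -0.0070 to 0.069, and the sex difference of Cdkn1a -0.081 to 0.42. Correlations with Phlda3 turned too. Without the 2 farthest arrays, Bbc3 was 0.070, Ccng1 -0.20 and Mdm2 0.12, and Ccng1 was -0.085 as rho. With single arrays left out, Bbc3 was -0.48 to 0.12, Ccng1 -0.31 to 0.40, Mdm2 -0.18 to 0.075, Sesn2 -0.092 to 0.24 and Trp53inp1 -0.32 to 0.057. The cause was not tested. Of the other settings 272 values kept direction and call, and with arrays left out 628 did. Eda2r was too dim to pass the filter on dim genes, so that setting gave it no value. No paired analysis was possible because each animal number belongs to 1 mouse. Dim signal limits Eda2r, and array days are not given in the sources used here.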
